A study of Rattus norvegicus with 15 samples.

Results

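UDP-glucuronosyltransferases of rat liver were followed through 6 listed genes, Ugt2b10, Ugt2b34l1, Ugt2b1, Ugt2b17, Ugt2b7 and Ugt1a6. A probe set, the group of array probes that gives 1 value, was taken where the array annotation names only the listed gene, by its current symbol or an older alias. This gave 5 probe sets for 5 genes, out of 14217 genes with a probe set of their own. Ugt2b17 is no current rat symbol: its probe set belongs to Entrez gene 266685, now called Ugt2b15 and so named here, and Ugt2b1 carries Ugt2b17 as an alias too. Ugt1a6 had no probe set of its own, as both probe sets that name it name 8 Ugt1a genes.

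The arrays came from liver RNA of 15 male Sprague-Dawley rats, with the arrays titled as biological replicates and named here by diet and the replicate number of the title. The descriptions number several arrays differently from the titles, so all array names and fits by replicate number rest on the titles. For 14 days, 5 rats ate genistein at 2 g/kg of diet, 5 ate daidzein at 2 g/kg, and 5 ate the isoflavone-free control diet. Every diet held casein (200 g/kg) with palm oil (100 g/kg), and the rats were 4 weeks old when the experiment began with 5 days of adaptation. Both compounds are isoflavones of soy. Genistein carries 1 hydroxyl group more than daidzein, and dose and time were matched.

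UDP-glucuronosyltransferases sit in the endoplasmic reticulum and move glucuronic acid from UDP-glucuronic acid onto steroids, bile pigments, drugs and plant phenols. The glucuronides are water-soluble and leave in bile and urine, and isoflavones themselves circulate largely in this form. Each Ugt2b enzyme has a gene of its own, while the Ugt1a enzymes come from 1 locus in which alternative first exons join shared later exons.

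In the RefSeq gene table (rat assembly GRCr8) the 5 measured genes lie in 1 cluster on chromosome 14. Ugt2b1, Ugt2b10 and Ugt2b34l1 follow each other there with no other Ugt gene between them, and Ugt2b7 and Ugt2b15 lie in the same cluster with other Ugt2b genes between. All 6 listed genes had an entry in the RefSeq promoter table, whose windows run from 250 bases before to 50 after a gene start. The Ugt2b10 window lies inside the span of that gene in the gene table, so it is not at the outermost start. The windows of the 3 adjacent genes are shown because they include both genes that changed with genistein and their neighbour. They are from the + strand at chr14:21462591-21462890 for Ugt2b10, chr14:21500698-21500997 for Ugt2b34l1 (the first of 2 listed windows) and chr14:21378632-21378931 for Ugt2b1, with matches to the motifs searched in capitals.
Ugt2b10: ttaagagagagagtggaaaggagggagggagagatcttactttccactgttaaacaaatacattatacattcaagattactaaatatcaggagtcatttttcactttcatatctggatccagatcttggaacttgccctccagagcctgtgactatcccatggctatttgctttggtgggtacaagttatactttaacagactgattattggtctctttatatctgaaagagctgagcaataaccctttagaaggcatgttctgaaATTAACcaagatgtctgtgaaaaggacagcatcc
Ugt2b34l1: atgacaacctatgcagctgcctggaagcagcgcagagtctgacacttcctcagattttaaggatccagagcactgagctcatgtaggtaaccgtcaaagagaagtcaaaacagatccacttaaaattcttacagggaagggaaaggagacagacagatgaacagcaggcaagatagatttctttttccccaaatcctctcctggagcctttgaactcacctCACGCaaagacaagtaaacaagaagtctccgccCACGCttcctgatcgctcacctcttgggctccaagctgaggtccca
Ugt2b1: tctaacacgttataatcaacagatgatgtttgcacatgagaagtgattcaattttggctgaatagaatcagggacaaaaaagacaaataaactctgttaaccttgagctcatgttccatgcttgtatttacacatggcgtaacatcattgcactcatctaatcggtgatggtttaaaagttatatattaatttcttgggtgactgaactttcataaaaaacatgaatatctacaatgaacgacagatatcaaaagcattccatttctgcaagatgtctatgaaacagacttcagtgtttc
The motifs, searched on both strands, were GCGTG (the Ah receptor core), TGACNNNGC (antioxidant response), AGGTCA (nuclear receptor half-site), GTTAAT (HNF1 half-site) and TTCNNNGAA (STAT5). Ugt2b10 had 1 match, to the HNF1 half-site, which 7.44% of 27457 promoter windows of the same length hold. Ugt2b34l1 had 2 matches to the Ah receptor core, which 30.9% of windows hold. Ugt2b1 had no match to these letters in this window. Of the windows not shown, Ugt2b15 had 1 match to AGGTCA (held by 15.7% of windows), Ugt2b7 had 1 to TTCNNNGAA (8.69%), and Ugt1a6 had 1 to GCGTG and 2 to GTTAAT. No searched window had a match to TGACNNNGC (12.2%), with 1 window searched for each listed gene. A match is a run of letters and not a measured binding site. The searched windows of the genes that changed shared no motif among these.

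Levels are given on a log2 scale with an arbitrary zero that was recovered from the deposited scores, so a difference of 1 is a 2-fold change. Levels of different probe sets cannot be ranked as amounts of RNA, and percentiles and dimness here describe array signal only. Hepatocyte markers stood at the top of the arrays: the 6 of 7 that were measured lay at or above the 99.8 percentile, and their mean level per array was 8.45 to 8.49 with genistein, 8.47 to 8.50 with daidzein and 8.41 to 8.54 in controls. Of 5 measured cholangiocyte markers 2 passed the filter on dim probe sets, a level of -0.30. Array pairs correlated between 0.931 and 0.969 over the 18625 probe sets tested. Control 1 had the highest median of the deposited values (0.127), and genistein 3 has "-re" added to its description with no explanation. In whole liver, more cells of a type and more RNA per cell cannot be told apart.

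Of the 4 member probe sets that could be tested, 2 rose with genistein against the control diet, Ugt2b10 and Ugt2b34l1. Whether either of these probe sets also reads another Ugt2b gene was not tested. Calls rest on limma over all 18625 tested probe sets with a Benjamini-Hochberg adjusted p under 0.05. By that call 0.322% of all tested probe sets changed between genistein and control, and 0.15% were higher. Members were chosen with earlier results of these data known, so the shares are no test of the members as a set. Ugt2b1 and Ugt2b15 did not pass, and Ugt2b7 lay below the filter. The unadjusted p in limma was under 0.05 for 3 of the 4 tested members, and for 2040 of all 18625 tested probe sets.

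Ugt2b10 carries the name of a human enzyme that conjugates amines such as nicotine, and what the rat gene conjugates is not given in the annotation used here. Its probe set, 1380278_at, read 5.00, 4.80, 5.20, 4.90 and 4.98 in genistein arrays 1 to 5, against 4.18, 4.37, 3.92, 4.42 and 4.29 in control arrays 1 to 5. Every genistein array lay above every control array, as did 1.21% of all tested probe sets. The means were 4.97 ± 0.15 with genistein and 4.23 ± 0.20 in controls (SD, n = 5 each), a 1.67-fold rise with a 95% confidence interval of 1.43 to 1.95 (log2 change 0.74 ± 0.10 SE, limma adjusted p = 0.0102).

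Ugt2b34l1 (Entrez gene 501907) is the next gene in the cluster, named for its likeness to Ugt2b34, an older symbol of Ugt2b10. Its probe set, 1381852_at, read 1.44, 1.46, 1.99, 1.00 and 1.58 in genistein arrays 1 to 5, against -0.27, -0.05, 0.13, 0.37 and 0.50 in control arrays 1 to 5. Again the groups did not overlap, and genistein 3 was the highest array for both genes. Mean levels were 1.49 ± 0.35 with genistein and 0.13 ± 0.31 in controls (SD, n = 5 each), so the gene was 2.56-fold higher, with a 95% confidence interval of 1.91 to 3.43 (limma adjusted p = 0.0126). This probe set is dimmer, at the 66.7 percentile of mean level. Its log2 change was 1.10 with 16 intensity units added, against 1.36 as reported, so its fold depends on such an offset.

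Both calls held when any 1 of the 15 arrays was removed. Without genistein 3 the log2 changes were 0.68 for Ugt2b10 and 1.23 for Ugt2b34l1. Both were lost when the daidzein arrays were left out of the fit (limma adjusted p = 0.0669 for Ugt2b10 and 0.05004 for Ugt2b34l1, just above the threshold, with the log2 changes kept) and without both control 1 and daidzein 5 (0.0612 each), while Ugt2b10 alone lost its call with median centring (0.120) and with the replicate numbers as a block (0.0528). Over all 26 alternatives the limma adjusted p ranged from 0.00587 to 0.120 for Ugt2b10 and from 0.00311 to 0.0612 for Ugt2b34l1.

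**Figure D1:**
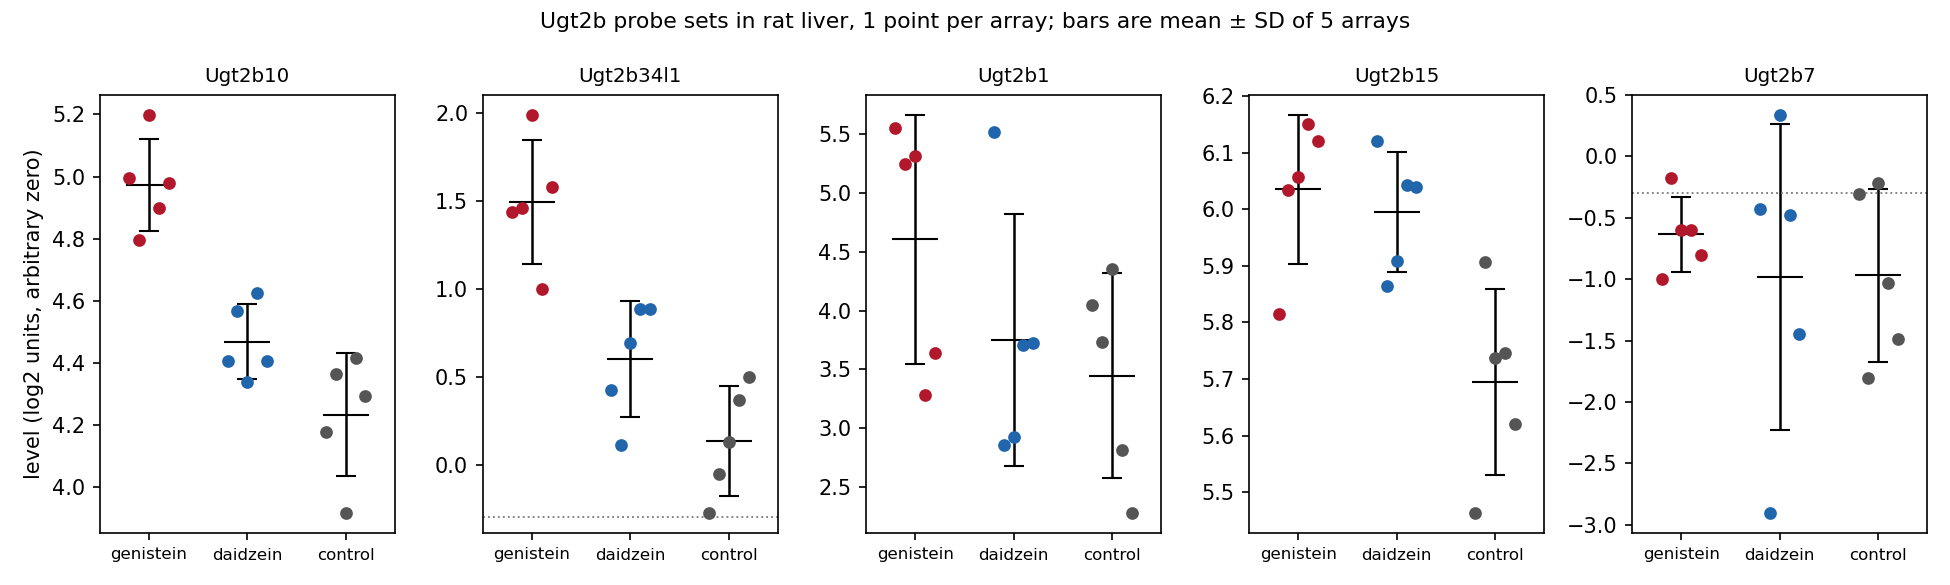
Level in log2 units (arbitrary zero) of the 5 member probe sets in each array, by diet; points are arrays 1 to 5 from left to right, bars are the mean and SD of 5 arrays, and the dotted line, drawn for the dim probe sets, is the filter level of -0.30. The genistein arrays of Ugt2b10 and Ugt2b34l1 lie above all others, those of Ugt2b1 spread from 3.28 to 5.55, and Ugt2b7 lies mostly below the line.

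Ugt2b1, an enzyme that in the rat conjugates testosterone and phenols, had the widest spread of the tested members. Its probe set, 1370698_at, stood at 5.55, 5.24, 5.31, 3.28 and 3.64 in genistein arrays 1 to 5, at 5.52, 2.86, 2.93, 3.70 and 3.72 in daidzein arrays 1 to 5, and at 4.05, 3.73, 4.36, 2.81 and 2.28 in control arrays 1 to 5. Thus 3 genistein arrays and 1 daidzein array lay above every control, and the others lay among the controls. The log2 change was 1.16 ± 0.58 (SE) for genistein against control, with a 95% confidence interval of -0.08 to 2.40 and a limma adjusted p of 0.489. This interval holds both 0 and a change as large as that of Ugt2b34l1. For daidzein against control it was 0.30 ± 0.58 (SE, limma adjusted p = 0.917), and -0.14 without daidzein 1.

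Ugt2b15, whose human namesake conjugates androgens, was even within each diet and lay slightly higher with either isoflavone. On probe set 1387955_at the genistein arrays read 5.82, 6.03, 6.06, 6.15 and 6.12, the daidzein arrays 6.12, 5.86, 5.91, 6.04 and 6.04, and the control arrays 5.46, 5.91, 5.74, 5.75 and 5.62. All 5 arrays of either isoflavone diet lay above the control mean, and 4 of 5 in each lay above every control, while genistein 1 and daidzein 2 lay below control 2. The log2 changes were 0.34 ± 0.09 for genistein (limma adjusted p = 0.153) and 0.30 ± 0.09 for daidzein (SE, limma adjusted p = 0.390), not past the threshold in either case. Both comparisons use the same 5 control arrays.

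Ugt2b7, named like the human enzyme of morphine and bile acids, was dim on probe set 1370615_at. Its values ranged from -1.0 to -0.17 with genistein, from -2.90 to 0.34 with daidzein and from -1.80 to -0.21 in controls, and the 3 diets overlapped. With no filter on dim probe sets the log2 change of genistein against control was 0.33 (limma adjusted p = 0.917). Its 95% confidence interval of -0.73 to 1.40 holds 0, so the sign of a change is not settled.

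None of the 4 tested member probe sets was called for daidzein against control. In that comparison 0.0161% of all tested probe sets were called, all of them higher. The levels of Ugt2b10 with daidzein were 4.41, 4.57, 4.34, 4.62 and 4.41 in arrays 1 to 5, of which 2 lay above every control. The log2 change was 0.23 ± 0.10 (SE), a 1.18-fold difference with a 95% confidence interval of 1.01 to 1.37 and a limma adjusted p of 0.589. For Ugt2b34l1 the daidzein arrays 1 to 5 read 0.43, 0.11, 0.69, 0.88 and 0.88, of which 3 lay above every control. That log2 change was 0.47 ± 0.20 (SE), or 1.38-fold with an interval of 1.03 to 1.85 (limma adjusted p = 0.572). The unadjusted p in limma was under 0.05 for 3 of the 4 tested members, at 0.0401 for Ugt2b10, 0.0325 for Ugt2b34l1 and 0.00565 for Ugt2b15, in a comparison where 8.25% of all tested probe sets had an unadjusted p under 0.05.

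The difference between the isoflavones was tested directly for the 4 tested members, with p adjusted over all 18625 probe sets, and none passed, against 0.113% of all probe sets. Ugt2b10 was 1.42-fold higher with genistein than with daidzein (log2 change 0.50 ± 0.10 SE, 95% confidence interval of the fold 1.22 to 1.65, limma adjusted p = 0.0826). Ugt2b34l1 was 1.86-fold higher (log2 change 0.89 ± 0.20 SE, interval 1.39 to 2.49, limma adjusted p = 0.0904). For both genes all 5 genistein arrays lay above all 5 daidzein arrays, as did 0.966% of all tested probe sets. Ugt2b10 passed with the filter at the 60th percentile (limma adjusted p = 0.0455) and with a trended, robust variance (0.0462), and Ugt2b34l1 passed without genistein 4 (log2 change 1.02, limma adjusted p = 0.0281). Over the alternatives the limma adjusted p ranged from 0.0455 to 0.622 for Ugt2b10 and from 0.0281 to 0.223 for Ugt2b34l1.

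For Ugt2b15 the compounds differed by 0.04 ± 0.09 (SE) on the log2 scale, with a 95% confidence interval of -0.16 to 0.24 (limma adjusted p = 0.947), so a difference beyond 1.18-fold in favour of genistein lay outside the interval. Its sign was negative with the values as deposited and with median centring. For Ugt2b1 the difference was 0.86 ± 0.58 (SE, interval -0.38 to 2.10, limma adjusted p = 0.723), which corresponds to 0.769-fold to 4.28-fold. Without daidzein 1, which holds that diet's highest value, it was 1.30.

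**Figure D2:**
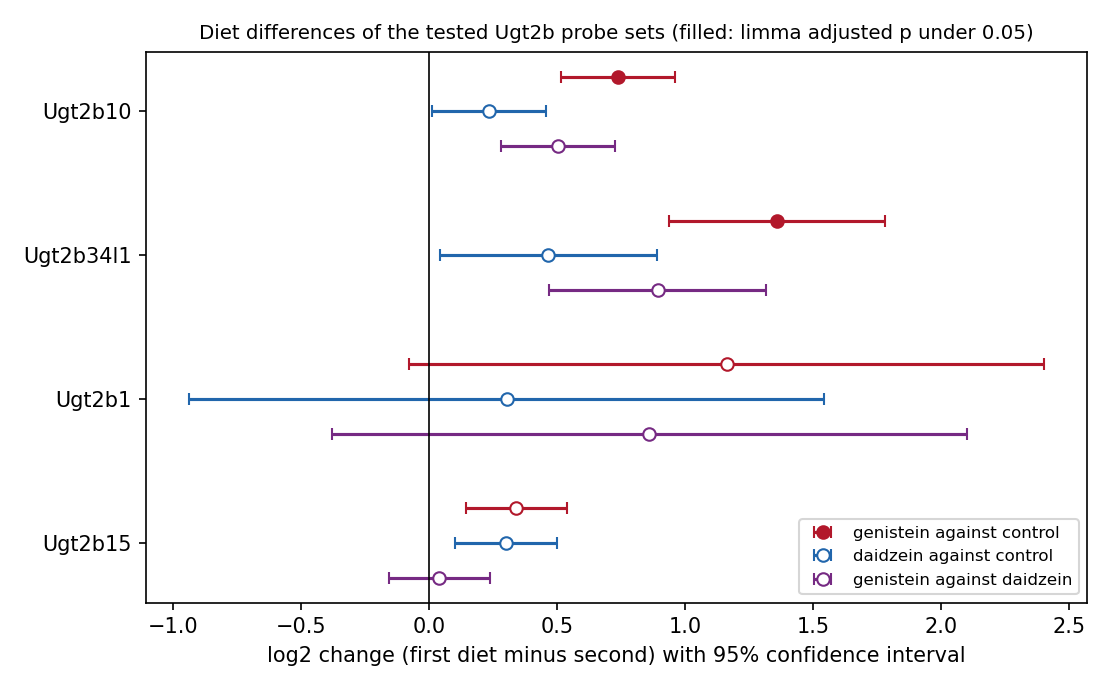
Log2 change (first diet minus second) with its 95% confidence interval for the 4 tested members in the 3 comparisons; filled points have a limma adjusted p under 0.05. Only the points of Ugt2b10 (0.74) and Ugt2b34l1 (1.36) for genistein against control are filled, and the intervals of Ugt2b1 all cross 0.

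Seen array by array, Ugt2b10 and Ugt2b34l1 shared their highest array, genistein 3, but not their lowest, which was control 3 for Ugt2b10 and control 1 for Ugt2b34l1. Genistein 4, the lowest genistein array for Ugt2b34l1 at 1.00, was not the lowest for Ugt2b10, where genistein 2 stood at 4.80.

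**Figure D3:**
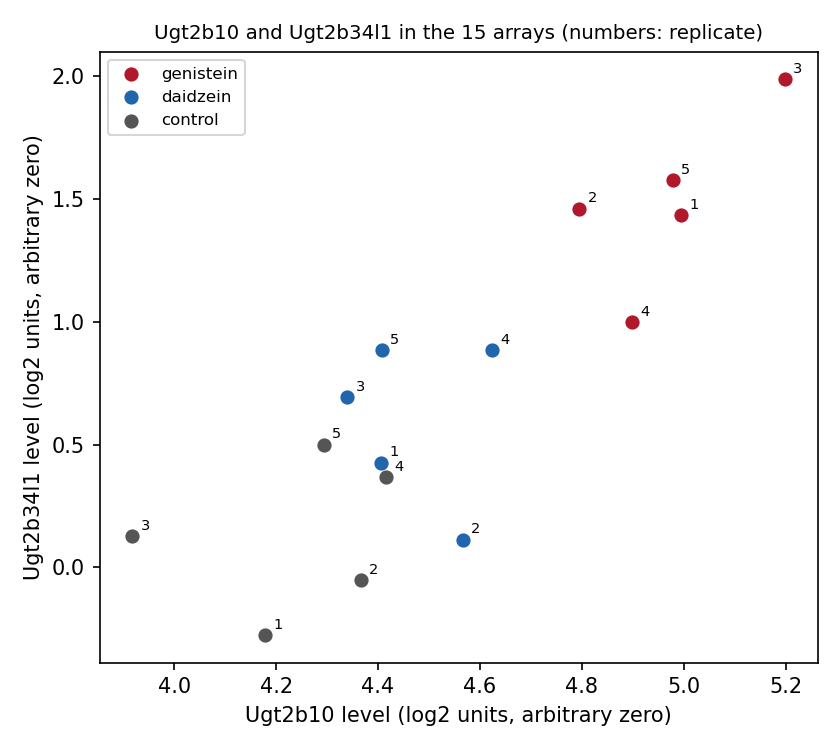
Level of Ugt2b34l1 against that of Ugt2b10, both in log2 units with an arbitrary zero, in the 15 arrays, with the replicate number beside each point. The 5 genistein arrays lie to the upper right of all daidzein and control arrays, which overlap each other.

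Across the 15 arrays, the genes most like Ugt2b10 among 10741 others were Cyp2c6v1, a drug-metabolising cytochrome P450 (Pearson r 0.903, Spearman rho 0.918), and Sult2a6, a hydroxysteroid sulfotransferase (r 0.894, rho 0.782). Those most like Ugt2b34l1 were Akr1c14, a hydroxysteroid dehydrogenase (r 0.940, rho 0.943), and Cyp2a1, a steroid-hydroxylating cytochrome P450 (r 0.938, rho 0.932). For Ugt2b1 they were Eif2s2, a translation initiation factor subunit (r 0.836), and Smim30l1 (r 0.805). For Ugt2b15 they were Accs (r 0.867) and Tmed7, a protein of the secretory pathway (r 0.862). These genes were picked as the highest of all and share arrays, diets and normalization with the members, so the values are descriptive and carry no p.

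Of the other UDP-glycosyltransferase genes, 4 had a probe set of their own and 3 of these (Ugt2b35, Ugt2a1 and Ugt2b) passed the filter, with none called, and none with an unadjusted p under 0.05, in any comparison by limma. A pair of probe sets was shared by the Ugt1a genes, Ugt1a6 included, the enzyme of small planar phenols. Probe set 1387759_s_at averaged 5.50 with genistein, 5.34 with daidzein and 5.07 in controls, with 4 of 5 arrays of either isoflavone diet above every control. Probe set 1370613_s_at averaged 6.03 with genistein, 6.17 with daidzein and 5.96 in controls, and the diets overlapped. For genistein against control the first had a log2 change of 0.43 ± 0.16 and the second of 0.07 ± 0.16 (SE, limma adjusted p = 0.349 and 0.926). Unadjusted, the limma p of this comparison was 0.0208 for the first, under 0.05, and 0.661 for the second. For daidzein against control it was 0.116 for the first and 0.209 for the second. This pair of probe sets does not tell which Ugt1a enzyme was measured. Ugt2b35 was nearly level, at 6.88 with genistein, 6.92 with daidzein and 6.90 in controls.

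Ugt2b, the gene of the rat enzyme that conjugates androsterone and known before as Ugt2b2, was split between rats within every diet. Its probe set 1387825_at read 6.74, 6.92, 7.05, 2.21 and 6.98 in genistein arrays 1 to 5, 6.61, 0.71, 6.67, 1.21 and 6.76 in daidzein arrays 1 to 5, and 6.42, 7.01, 6.85, -2.19 and 6.85 in control arrays 1 to 5. Genistein 4, daidzein 2, daidzein 4 and control 4 thus lay over 4 log2 units below every other array, in all 3 diets. The other Ugt2b probe set, 1385247_at, was also lowest in the same arrays, at -0.68 in genistein 4, -0.25 in daidzein 2, -0.22 in daidzein 4 and -0.23 in control 4, against 1.80 to 3.75 in the other arrays. In those arrays Ugt2b10 stood at 4.90, 4.57, 4.62 and 4.42 and Ugt2b15 between 5.75 and 6.15, with no such gap. Ugt2b1 stood at 3.28 in genistein 4 and 2.86 in daidzein 2, each the lowest of its diet, at 3.70 in daidzein 4, and at 2.81 in control 4, the second lowest control. Ugt2b34l1 went both ways: it was the lowest of its diet in genistein 4 (1.00) and daidzein 2 (0.11), but the highest of its diet in daidzein 4 (0.88) and second to control 5 in control 4 (0.37). How far these probe sets measure more than 1 Ugt2b gene was not tested.

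**Figure D4:**
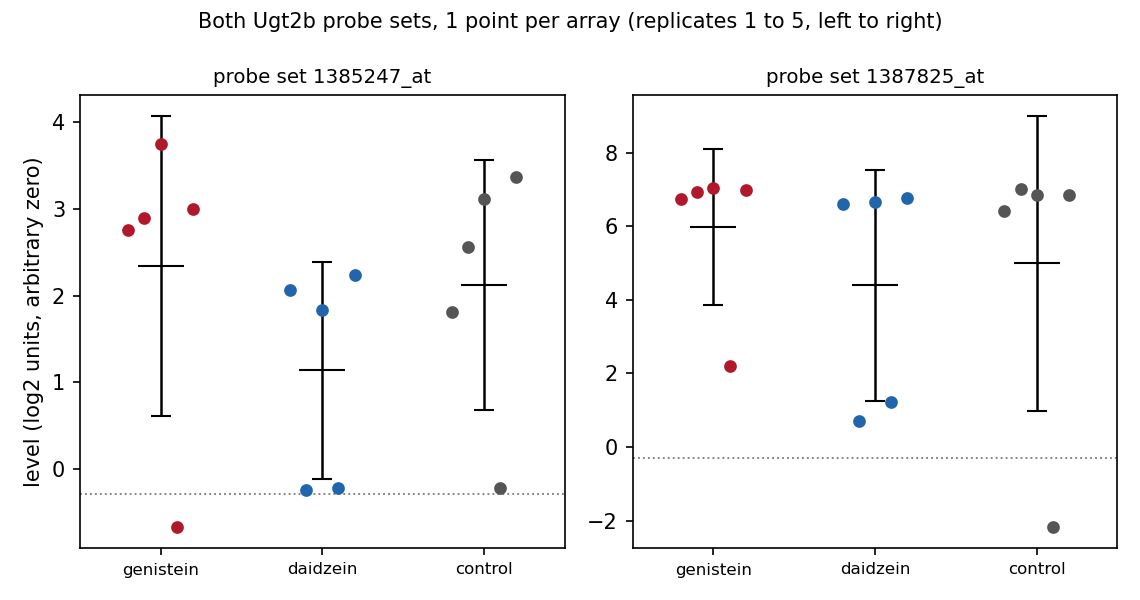
Level in log2 units (arbitrary zero) of both probe sets of Ugt2b by diet; points are arrays 1 to 5 from left to right, bars are the mean and SD of 5 arrays, and the dotted line is the filter level of -0.30. In each panel genistein 4, daidzein 2, daidzein 4 and control 4 lie far below the rest.

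Genes around the enzymes showed few calls. The counts of unadjusted p under 0.05 given for each list below have a background. Over all 18625 tested probe sets, 2040 had such a p in limma for genistein and 1536 (8.25%) for daidzein, against control. With 1 probe set taken per gene, 0.335% of 10745 genes were called for genistein against control, 0.0279% for daidzein against control and 0.14% for genistein against daidzein, and the median log2 change of all genes was -0.00 in each comparison with control. UDP-glucuronic acid supply had 9 tested genes and none called by limma (0 had an unadjusted p under 0.05 for genistein and 4 for daidzein, against control), with medians of -0.08 for genistein and 0.07 for daidzein. Ugp2, which makes UDP-glucose, had a log2 change of 0.56 ± 0.16 with daidzein (SE, limma adjusted p = 0.358), and Entpd5, an endoplasmic reticulum nucleotidase, missed the threshold between genistein and daidzein (-0.48 ± 0.11 SE, limma adjusted p = 0.0943). The 7 genes of glucuronate and ascorbate metabolism had none called either (1 with an unadjusted p under 0.05 for genistein and 3 for daidzein). Of these Gulo, the last enzyme of the ascorbate synthesis that rats have, had a log2 change of -0.33 and Rgn, the lactonase of the step before, one of -0.36 with daidzein (limma adjusted p = 0.395 and 0.346).

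Glucuronide export and hydrolysis had 8 tested genes and none called (3 with an unadjusted p under 0.05 for genistein and 1 for daidzein), with a median of 0.11 for genistein. Abcc2, the canalicular pump that puts glucuronides into bile, averaged 5.09 with genistein and 4.59 in controls, and its 5 genistein arrays lay above all controls, as did those of 1.24% of genes (log2 change 0.49 ± 0.13 SE, limma adjusted p = 0.142). Gusb, the glucuronidase that splits glucuronides, had its lowest p between the isoflavones, where genistein was higher by 0.30 ± 0.09 log2 (SE, limma adjusted p = 0.212). The 14 tested regulators had none called (1 with an unadjusted p under 0.05 in each comparison with control), with medians of 0.08 for genistein and 0.03 for daidzein. The lowest p among them belonged to Keap1, the inhibitor of Nrf2, between the isoflavones (-0.23, limma adjusted p = 0.342), and to Nr1h3, the oxysterol receptor, for genistein (-0.25, limma adjusted p = 0.337).

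Among 13 inducible enzymes that share regulators with Ugt genes, 1 was called, and it rose with daidzein. Of the 13, 3 had an unadjusted p under 0.05 in limma for genistein and 6 for daidzein, against control. Over all 18625 tested probe sets, 2040 and 1536 (8.25%) did. Ephx1, the microsomal epoxide hydrolase, averaged 6.81 with daidzein and 6.02 in controls (log2 change 0.79 ± 0.12 SE, limma adjusted p = 0.0453). The call was lost in 19 of 26 alternatives, 13 of them fits without 1 array, with a limma adjusted p of 0.00919 to 0.543 and a log2 change of 0.73 to 0.86. With genistein it was at 0.41 ± 0.12 (SE, limma adjusted p = 0.169). Nqo1, a quinone reductase, had log2 changes of 1.86 with daidzein and 0.78 with genistein (limma adjusted p = 0.228 and 0.510). Control 1 stood at 0.73 for Nqo1, against 2.11 to 3.10 in the other controls, and without it the log2 changes were 1.48 with daidzein and 0.39 with genistein. Cyp3a2, a steroid-hydroxylating cytochrome P450 chosen after its values were seen, had the lowest log2 change of these lists. It averaged 5.40 with genistein and 7.15 in controls, and the groups did not overlap, as for 1.64% of genes that were lower (log2 change -1.75 ± 0.44 SE, limma adjusted p = 0.120). It passed in 1 of 26 alternatives, without genistein 4 (-2.08, limma adjusted p = 0.0252, range over the alternatives 0.0252 to 0.280). For Ugt2b10 and Ugt2b34l1 the larger of both changes was that of genistein, and for Ephx1 and Nqo1 that of daidzein. The direct difference between the isoflavones passed for none of these 4 genes.

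Cell type and zone markers were compared in 27 two-sided exact permutation tests over samples (9 lists, 3 comparisons), and none had an adjusted p under 0.357. The pericentral hepatocyte list, 6 measured genes of 6, lay at 3.69 to 3.99 with genistein and 3.29 to 3.75 with daidzein (difference 0.27, exact p = 0.0397, adjusted 0.357), and at 3.67 to 3.89 in controls. The stellate list, 7 of 7, lay at 1.69 to 1.90 with genistein and 1.39 to 1.71 with daidzein (difference 0.19, exact p = 0.0159, adjusted 0.357), and at 1.66 to 1.83 in controls (daidzein minus control -0.14, exact p = 0.0397, adjusted 0.357). Daidzein against control differed by -0.19 in the pericentral list (exact p = 0.0952). Genistein against control, where the member calls were made, differed by 0.08 in the pericentral list (exact p = 0.246) and by 0.04 in the stellate list (exact p = 0.397). Their part in the member values was not tested.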

How the data were processed

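Liver RNA of 15 rats was labelled with the Affymetrix One-Cycle kit, per the labels' protocols, and measured on 1-channel arrays. The deposited values are scores, taken from the values to be a log signal standardized within each array, in 31099 rows. How background and probes were handled and which scale was used are not given in the sources used here. From the spacing of repeated values the scale could be recovered: after exponentiation 585 of 585 gaps were whole steps within 0.001. The mean factor, 2.60 log2 units for 1 deposited unit (2.54 to 2.79 over arrays), was applied to every array.

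Array medians spanned more than 0.1, so arrays were quantile normalized. After 57 control probe sets were left out, the filter at the 40th percentile of mean level left 18625 probe sets, which were tested with lmFit and eBayes (limma 3.58.1, R 4.3.3) in 1 model of 3 diets (12 residual and 2.58 prior degrees of freedom), adjusted by Benjamini-Hochberg. No missing value lay in a member probe set. The fit and the calls, but not the scale recovery or the normalization, were also run on simulated data, with the outcome not given here. The simulated data were independent normal noise with some probe sets shifted by more than the log2 change of Ugt2b10. They are unlike real arrays, whose probe sets can vary together. A gene is represented by its tested probe set of highest mean level.

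The replicate numbers of the titles showed no sign of pairing: 1 of 15 same-number pairs had residuals that correlated above 0.1 (r from -0.163 to 0.109). Pairing by the numbers of the descriptions was not tested. Members and lists were chosen with earlier results of these data known. The text names all members, the called genes or the 2 of lowest p in each list, and the 2 genes most alike to each tested member. Outside this rule it names Cyp3a2, chosen after its values were seen, and the other Ugt genes measured. The number of arrays limits the precision. Promoter sequences are RefSeq's (GRCr8). Protein sequences were not used here.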

Additional observations from a re-analysis of the deposited data

Results flagged for a closer look

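In a check of 39 groups of 5 arrays (13 Ugt probe sets in 3 diets), 3 held an array far from the others, where chance would mark about 1 in 20. All 3 are of Ugt2b, and none is of a member gene. On probe set 1387825_at genistein 4 stood at 2.21 while the other genistein arrays lay between 6.74 and 7.05, and control 4 stood at -2.19 while the other controls lay between 6.42 and 7.01. On probe set 1385247_at genistein 4 stood at -0.68, with the others between 2.76 and 3.75. The check cannot mark daidzein, where 2 arrays are low.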

How the results depend on the processing

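Each result was recomputed under 26 alternatives, 15 of which left out 1 array. Of 312 recomputed log2 changes of tested members 300 kept their direction and side of the threshold, 6 lost and 3 gained a call, and 3 turned their sign. The 3 turned were Ugt2b1 for daidzein against control without daidzein 1 (-0.14; the range without 1 array was -0.14 to 0.53), and Ugt2b15 for genistein against daidzein with the values as deposited (-0.0185) and with median centring (-0.000161); none of these was a call. The cause was not tested in any case.

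For genistein against control the 2 member calls became 1 with median centring, 0 with only the 2 diets compared, 1 with the replicate block and 0 without both control 1 and daidzein 5, and were 2 in each fit that left out 1 array. The 60 probe sets called in all became 34 with median centring, 14 with no filter, 124 with the filter at the 60th percentile, 0 with only the 2 diets compared (1896 had an unadjusted p under 0.05), 140 with array quality weights, 110 with trended, robust variance, 17 with the replicate block and 4 without both control 1 and daidzein 5. Leaving out 1 array gave 10 to 203: 10 without control 1, 25 without control 2, 12 without control 3, 21 without control 4, 35, 32, 37 and 34 without daidzein 1 to 4, 34, 14, 17 and 203 without genistein 1 to 4.

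For daidzein against control no alternative called a member. The 3 probe sets called in all became 7 with the filter at the 60th percentile, 7 with array quality weights, 6 with trended, robust variance and 1 without both control 1 and daidzein 5, and 2 to 8 without 1 array (8 without daidzein 1). For genistein against daidzein the 0 member calls became 1 with the filter at the 60th percentile, 1 with trended, robust variance, and 0 to 1 without 1 array. The 21 called in all became 9 with median centring, 35 with 16 intensity units added, 3 with no filter, 67 with the filter at the 60th percentile, 2 with only the 2 diets compared, 74 with array quality weights, 53 with trended, robust variance, 2 with the replicate block and 4 without both control 1 and daidzein 5, and 3 to 136 without 1 array. The mean over probe sets of a gene was not run, as each tested member has 1 probe set. Dim probe sets such as Ugt2b7 are limited by signal over background.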
